A study of Mus musculus with 4 samples.

Results

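The genes examined were 7 claudins, *Cldn1*, *Cldn3*, *Cldn4*, *Cldn5*, *Cldn7*, *Cldn8* and *Cldn10*, together with *Tjp1*, which encodes the scaffold protein ZO-1. They were taken by symbol from the table of single-cell counts, where each had a row, and are 8 of the 16892 genes listed there. Their levels were described in 7 cell types, in 34 finer populations and in each of 4 libraries, using the population names that the authors assigned to every cell. Cells came from 4 male FVB/NJ mice aged 10 to 12 weeks, with no treatment or genetic alteration named. Their 8 epididymides were cut into caput, corpus, cauda and vas deferens segments, the 8 segments of a region were pooled, sperm were washed out, and the dissociated cells of each pool gave 1 droplet library. A region is therefore a single pool of mice, region and library cannot be told apart, and the cuts only roughly followed the anatomical borders, so that a library may hold cells of its neighbor. There was no replicate and hence no test between regions or cell types, and cells of a library were not treated as replicates.

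Tight junctions seal the space between neighboring epithelial cells, and claudins are the 4-pass membrane proteins whose strands set which ions and solutes may pass along that space. Some claudins mainly tighten the seal, others form pores, and ZO-1 ties the strands to the actin cytoskeleton. In the epididymis these junctions make up the blood-epididymis barrier, which keeps the fluid in which sperm mature apart from blood and lymph. Principal cells absorb and secrete, clear cells acidify the lumen, and basal cells lie against the basement membrane with slender processes reaching between their neighbors.

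*Cldn4* and *Cldn3* are neighbors on mouse chromosome 5 and point away from each other. In the GENCODE annotation of GRCm38, *Cldn4* occupies chr5:134945119-134946934 on the minus strand and *Cldn3* occupies chr5:134986214-134987472 on the plus strand, with 39279 bases and 0 annotated genes between them. *Cldn1* (chr16:26356642-26371841), *Cldn5* (chr16:18776847-18778262) and *Cldn8* (chr16:88560828-88563183) share chromosome 16, *Cldn7* lies at chr11:69964779-69967885, *Cldn10* at chr14:118787908-118875489 and *Tjp1* at chr7:65296165-65527781. *Cldn3* overlaps the gene *Wbscr25*, *Cldn10* overlaps *n-R5s51*, and *Tjp1* overlaps *Gm44792*, *Gm44794* and *Gm44795*. None of these overlapping genes has a row in the counts. *Gm49179* lies on the same strand within 1000 bases downstream of *Cldn10*. *Cldn7* has 2 and *Cldn10* has 6 RefSeq mRNAs, and because the libraries read only the 3′ end of each transcript, the values below do not say which start or form was used. RefSeq promoters were matched for 7 of the 8 members, with no entry for *Cldn8*. Those of the 2 neighbors *Cldn3* and *Cldn4*, of *Cldn7*, whose levels followed those of *Cldn3* most closely, and of *Cldn5*, which had its own cell type, are shown so that their start regions may be compared. Each runs 5′ to 3′ on the gene's strand from 250 bases before to 50 bases after the start (GRCm38.p6), and capitals mark matches to 3 motifs searched on both strands, which did not overlap: the GC box GGGCGG, the grainyhead-like motif AACCNGTT and the TATA box TATAAA.
*Cldn3* (chr5:134985964-134986263, plus strand): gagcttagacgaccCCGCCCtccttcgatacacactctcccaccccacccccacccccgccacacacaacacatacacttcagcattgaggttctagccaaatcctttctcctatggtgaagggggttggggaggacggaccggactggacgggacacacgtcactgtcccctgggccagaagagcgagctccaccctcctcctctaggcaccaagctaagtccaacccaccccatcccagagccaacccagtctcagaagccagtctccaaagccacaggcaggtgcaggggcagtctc
*Cldn4* (chr5:134946885-134947184, minus strand): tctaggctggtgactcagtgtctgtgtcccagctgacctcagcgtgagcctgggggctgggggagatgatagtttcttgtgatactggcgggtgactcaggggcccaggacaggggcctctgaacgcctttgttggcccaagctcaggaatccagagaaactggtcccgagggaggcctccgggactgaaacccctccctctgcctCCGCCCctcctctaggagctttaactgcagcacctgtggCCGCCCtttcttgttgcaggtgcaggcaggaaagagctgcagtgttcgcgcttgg
*Cldn7*, first start (chr11:69964529-69964828, plus strand): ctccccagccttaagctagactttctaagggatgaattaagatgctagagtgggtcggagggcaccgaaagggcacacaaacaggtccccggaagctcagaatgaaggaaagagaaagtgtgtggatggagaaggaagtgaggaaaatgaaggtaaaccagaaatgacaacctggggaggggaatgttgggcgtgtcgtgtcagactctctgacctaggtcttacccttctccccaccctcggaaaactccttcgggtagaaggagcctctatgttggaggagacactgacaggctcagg
*Cldn7*, second start (chr11:69965171-69965470, plus strand): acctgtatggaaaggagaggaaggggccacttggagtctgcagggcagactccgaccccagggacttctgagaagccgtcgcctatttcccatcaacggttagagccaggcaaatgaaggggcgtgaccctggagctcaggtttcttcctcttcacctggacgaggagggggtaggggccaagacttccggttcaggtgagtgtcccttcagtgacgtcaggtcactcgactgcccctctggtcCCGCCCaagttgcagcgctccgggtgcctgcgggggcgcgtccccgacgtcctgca
*Cldn5* (chr16:18776597-18776896, plus strand): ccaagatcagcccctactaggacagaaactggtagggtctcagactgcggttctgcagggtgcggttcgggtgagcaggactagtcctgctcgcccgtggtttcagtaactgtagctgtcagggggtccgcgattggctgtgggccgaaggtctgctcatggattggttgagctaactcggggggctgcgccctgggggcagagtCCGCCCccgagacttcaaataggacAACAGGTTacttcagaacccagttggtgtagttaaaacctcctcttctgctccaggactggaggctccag

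The *Cldn4* window held 2 GC boxes, the *Cldn3* window 1, the second *Cldn7* window 1 and the first *Cldn7* window 0. The *Cldn5* window held 1 GC box and 1 grainyhead-like motif, the only match to that motif among the 9 windows of the members. Of 32851 RefSeq promoter windows of this length, 35.7% held the GC box, 2.09% the grainyhead-like motif and 13.6% the TATA box, which had 0 matches in the members' windows. A match is a run of letters and was not examined as a binding site.

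Levels are UMIs (counted molecules) of a gene per 1,000,000 UMIs of the group of cells, abbreviated UPM, with a 95% exact Poisson interval in parentheses. Each UMI is a 3′ tag of 1 molecule, so levels were not divided by transcript length. Intervals cover counting error only and not the spread between animals. The 3 epithelial types comprised 3956 principal, 1412 basal and 348 clear cells, beside 2222 stromal, 502 muscle, 245 endothelial and 195 immune cells. Median UMIs per cell were 934.5 in principal, 4333 in basal, 4430 in clear, 2590 in endothelial and 2887 in immune cells, and library totals ran from 4408989 to 10744928 UMIs. The labels were checked against listed markers. *Krt14* was 2880 UPM in basal cells, *Atp6v1g3* 7062 UPM in clear cells, *Pecam1* 660 UPM in endothelial cells and *Lyz2* 2563 UPM in immune cells, each the highest of the 7 types. Other listed markers were weak or went against their label. *Slc4a9*, listed for clear cells, was highest there but at only 4.10 UPM (6 UMIs). *Cd52*, listed for immune cells, was 1400 UPM there and 20559 UPM in principal cells. *Itga6*, listed for basal cells, was 245 UPM there and 268 UPM in endothelial cells. Of the 5 epithelial markers listed for principal and other luminal cells, 4 were higher in basal than in principal cells (*Krt8* was 1875 and 1061 UPM), and only *Krt19* was higher in principal cells (587 against 392 UPM), so these markers do not set principal cells apart. The populations were built from these same counts, and *Cldn1* and *Cldn4* were among the adhesion genes that the study listed for basal cells from these samples, so their basal levels are not independent of those names. Doublets were kept (a caller marked 178 of 8880 cells, 2.00%), and 43 barcodes occurred in more than 1 library. Leaving out either set of cells changed none of the counts of members past a 4-fold rule given below.

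*Cldn4* and *Cldn1* were highest in basal cells. *Cldn4*, a sealing claudin of many lining epithelia, was the most abundant claudin measured, at 3714 UPM (3666 to 3763) in basal cells, 1091 (1038 to 1146) in clear cells and 406 (394 to 419) in principal cells. By library, *Cldn4* in basal cells was 2819 UPM in caput (2732 to 2907), 4378 in corpus (4296 to 4461), 5156 in cauda (5014 to 5302) and 2418 in vas deferens (2336 to 2502). The corpus and cauda pools stood above the other two, and every basal value stood above every clear value, which were 508, 852, 1558 and 1068 UPM in the same order. Pooled over libraries, *Cldn4* was 3.40 times as high in basal as in clear cells (exact interval 3.24 to 3.58), and 2.68 times as high in clear as in principal cells (2.53 to 2.85). In principal cells it ran from 264 UPM in corpus to 462 UPM in caput, the narrowest spread between libraries of the 4 claudins with over 100 UPM in that cell type. The principal populations differed more, from 231 UPM of *Cldn4* in principal 7 to 896 UPM in principal 3, a caput population.

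*Cldn1*, which the skin needs for its water barrier, had a lower level and a sharper contrast. In basal cells *Cldn1* was 598 UPM in caput (558 to 640), 828 in corpus (792 to 864), 781 in cauda (726 to 839) and 632 in vas deferens (590 to 676), or 725 (704 to 747) over all. Clear cells had 11.3, 38.5, 65.6 and 107 UPM of *Cldn1* in that order, and principal cells had 19.7, 49.3, 54.6 and 24.8 UPM. Pooled over libraries, principal cells had 32.9 UPM and immune cells 20.6 UPM, a ratio of 1.60 whose interval held 1 (0.902 to 3.12). The basal and other epithelial values did not overlap in any library. The pooled ratio of basal to clear cells was 14.1 (11.3 to 18.0), and it narrowed from 53.0 (18.1 to 258) in caput to 21.5 in corpus, 11.9 in cauda and 5.92 (3.62 to 10.4) in vas deferens. The 38 clear cells of the vas deferens library carried 16 *Cldn1* UMIs and also had summed levels of the 4 basal markers of 367 UPM, with none at 0, against 32.1 to 93.3 UPM in the clear cells of the other libraries. Their summed clear markers were 3665 UPM, against 8124 to 9028 UPM elsewhere. What part these had in that *Cldn1* value was not tested.

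**Figure D1:**
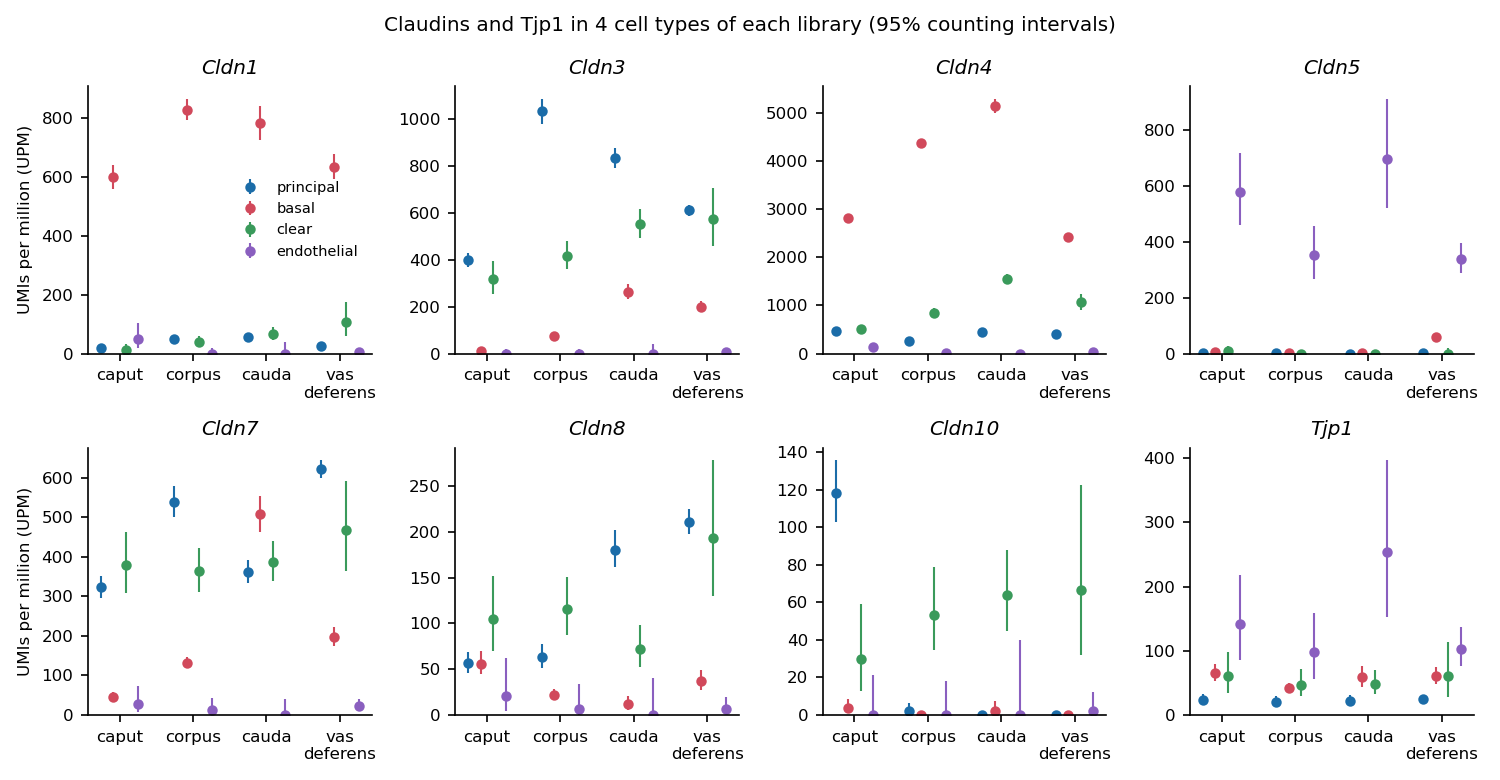
Level of each member (UMIs per 1,000,000 UMIs, linear axis that differs between panels) by library in principal, basal, clear and endothelial cells, with 1 point per cell type and bars giving 95% Poisson intervals. Of these cell types, *Cldn1* and *Cldn4* sit highest in basal cells in all 4 libraries, *Cldn5* in endothelial cells, and *Cldn10* in principal cells is at 118 in caput and at or below 2.11 in the other libraries.

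*Cldn3*, *Cldn7* and *Cldn8* were highest in principal cells when libraries were pooled, although *Cldn4* was above each of them in clear cells and in caput principal cells. *Cldn3*, regarded as a sealing claudin, was 677 UPM (660 to 693) in principal, 470 (436 to 506) in clear and 117 (109 to 126) in basal cells. In principal cells *Cldn3* was 400 UPM in caput (371 to 431), 1034 in corpus (982 to 1088), 835 in cauda (792 to 879) and 611 in vas deferens (589 to 634). Clear cells had 320, 418, 554 and 574 UPM of *Cldn3* in the same order, below principal cells in 4 of 4 libraries as point values, although the intervals of the clear-to-principal ratio held 1 in caput and vas deferens (0.939 times, 0.749 to 1.16).

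*Cldn7*, a claudin found along the basolateral membrane of many epithelia, was 508 UPM (494 to 522) in principal, 387 (355 to 420) in clear and 185 (174 to 196) in basal cells. By library, *Cldn7* in principal cells was 323 UPM in caput (296 to 351), 538 in corpus (501 to 578), 362 in cauda (334 to 392) and 621 in vas deferens (599 to 644). Clear cells had 380, 364, 387 and 467 UPM, a narrow range that crossed the principal values, so that principal cells were higher in only 2 of 4 libraries. The order of principal and clear cells for *Cldn7* was thus not shared by the libraries, and without the vas deferens library their ratio was 1.06 (0.959 to 1.17), an interval that holds 1.

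*Cldn8*, described as a cation barrier in the kidney's collecting duct, was the least abundant of these 3, at 156 UPM (148 to 164) in principal, 105 (88.7 to 123) in clear and 31.2 (27.0 to 35.9) in basal cells. In principal cells *Cldn8* was 56.3 UPM in caput (45.6 to 68.7), 63.4 in corpus (51.0 to 78.0), 180 in cauda (161 to 202) and 211 in vas deferens (198 to 224), with the 2 distal pools above the 2 proximal ones. The populations within a pool differed. In the caput, principal 1 had 27.4 UPM, principal 2 had 42.6 and principal 3 had 168 (112 to 243). Principal 8, 9 and 10, mostly of the cauda, had 108 (86.9 to 133), 127 and 331 UPM. Clear cells had 105, 116, 72.5 and 194 UPM of *Cldn8* from caput to vas deferens. Within libraries, *Cldn8* was higher in clear than in principal cells in caput (1.87 times, 1.18 to 2.87) and corpus (1.82 times, 1.28 to 2.58), lower in cauda (0.402 times, 0.284 to 0.556), and had an interval holding 1 in vas deferens.

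*Cldn10*, whose forms make pores for cations or anions depending on the start used, was measured mainly in 2 cell types, principal cells of the caput and clear cells. In principal cells 204 *Cldn10* UMIs were counted in caput, a level of 118 UPM (103 to 136), against 3 UMIs in corpus, 0 in cauda and 0 in vas deferens. The upper limit set by 0 UMIs (3 UMIs per library) was 1.72 UPM in cauda and 0.641 UPM in vas deferens, so the caput level was at least 68.6 times that of the cauda. Within the caput, principal 1 had 194 UPM (158 to 236), principal 2 had 117 (95.3 to 143) and principal 3 had 24.1 (6.55 to 61.6). In clear cells, by contrast, *Cldn10* was measured in every library, at 30.1 UPM in caput (8 UMIs, upper bound 59.3), 53.5 in corpus (34.6 to 79.0), 63.9 in cauda (45.0 to 88.1) and 66.8 in vas deferens (32.0 to 123), with overlapping intervals. Clear cells were 2.53 times as high as principal cells when all libraries were pooled, 157 times (51.7 to 781) without the caput library and 1.26 times (0.946 to 1.66) without the vas deferens library. Stromal cells had 69 *Cldn10* UMIs (10.6 UPM), 31 of them in stem-like stromal cells (27.2 UPM), while basal cells had 7 UMIs in all.

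*Cldn5*, the main claudin of vessel walls, was 414 UPM (372 to 460) in endothelial cells. The endothelial level of *Cldn5* was 579 UPM in caput (460 to 719), 353 in corpus (268 to 456), 696 in cauda (520 to 913) and 339 in vas deferens (287 to 397). These rest on 50, 39, 12 and 144 endothelial cells, and each stood far above every other cell type of its library. Principal cells had 8 *Cldn5* UMIs in all and muscle cells 0. Basal cells had the next level, 15.7 UPM (12.7 to 19.1), made of 4.25, 2.84, 3.14 and 59.9 UPM from caput to vas deferens. The endothelial-to-basal ratio was 26.4 (21.0 to 33.4) over all libraries and 152 (91.4 to 272) without the vas deferens library. Of the 81 *Cldn5* UMIs in vas deferens basal cells, 40 were in a single cell, and 80 were in 7 cells that also carried a UMI of an endothelial marker (*Pecam1*, *Cdh5*, *Kdr* or *Emcn*). The summed endothelial markers of basal cells were 101 UPM in that library, against 15.8 to 28.3 UPM in the others. With basal and clear cells carrying such a marker left out, vas deferens basal cells had 1 *Cldn5* UMI (0.776 UPM).

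Like *Cldn5*, *Tjp1*, the scaffold shared by epithelial and endothelial junctions, was highest in endothelial cells, and it did not follow the claudins that were highest in epithelial cells. It was 122 UPM (99.6 to 148) in endothelial, 78.3 (71.6 to 85.4) in stromal, 53.7 (48.1 to 59.8) in basal, 51.3 (40.4 to 64.3) in clear, 45.2 (35.2 to 57.3) in muscle, 23.5 (20.6 to 26.8) in principal and 10.3 (3.78 to 22.4) in immune cells. The intervals of basal, clear and muscle cells overlapped. Endothelial cells were 1.56 times as high as stromal cells (1.25 to 1.93) and were higher in 4 of 4 libraries. Basal cells had from 2.02 to 2.74 times the *Tjp1* level of principal cells in each library, with every interval above 1, and clear cells had from 2.16 to 2.53 times. In principal cells *Tjp1* stayed between 20.4 UPM in corpus and 24.8 UPM in vas deferens, and these intervals overlapped.

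Over the 8 members, a single cell type was at least 4-fold above the next with at least 20 UMIs for 2, *Cldn1* and *Cldn5*, where 14.8% of 11352 genes met the same rule. The median ratio of the leading to the next type was 2.04 for the members and 1.45 for all genes tested. *Cldn4* lay just outside the rule at 3.40, and inside it without the cauda library (4.39). Without the caput library *Cldn10* lay inside the rule, with clear cells 5.67 times as high as stromal cells (3.97 to 8.13).

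Summed over the 7 claudins, basal cells had 4789 UPM (4735 to 4844), clear cells 2160 (2085 to 2236), principal cells 1802 (1775 to 1829) and endothelial cells 496 (449 to 546). The make-up of that sum differed between the types. *Cldn4* made 77.6% and *Cldn1* 15.1% of the claudin UMIs of basal cells, and *Cldn3*, *Cldn7* and *Cldn8* made 2.44%, 3.86% and 0.652%. Principal cells divided theirs among *Cldn3* (37.5%), *Cldn7* (28.2%), *Cldn4* (22.6%) and *Cldn8* (8.63%). Clear cells lay between, with *Cldn4* at 50.5%, *Cldn3* at 21.8% and *Cldn7* at 17.9%. In endothelial cells *Cldn5* made 83.6%.

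By library, *Cldn4* ranged from 68.2% to 80.5% of the claudin UMIs of basal cells. In clear cells *Cldn4* ranged from 37.3% in caput to 57.7% in cauda.

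**Figure D2:**
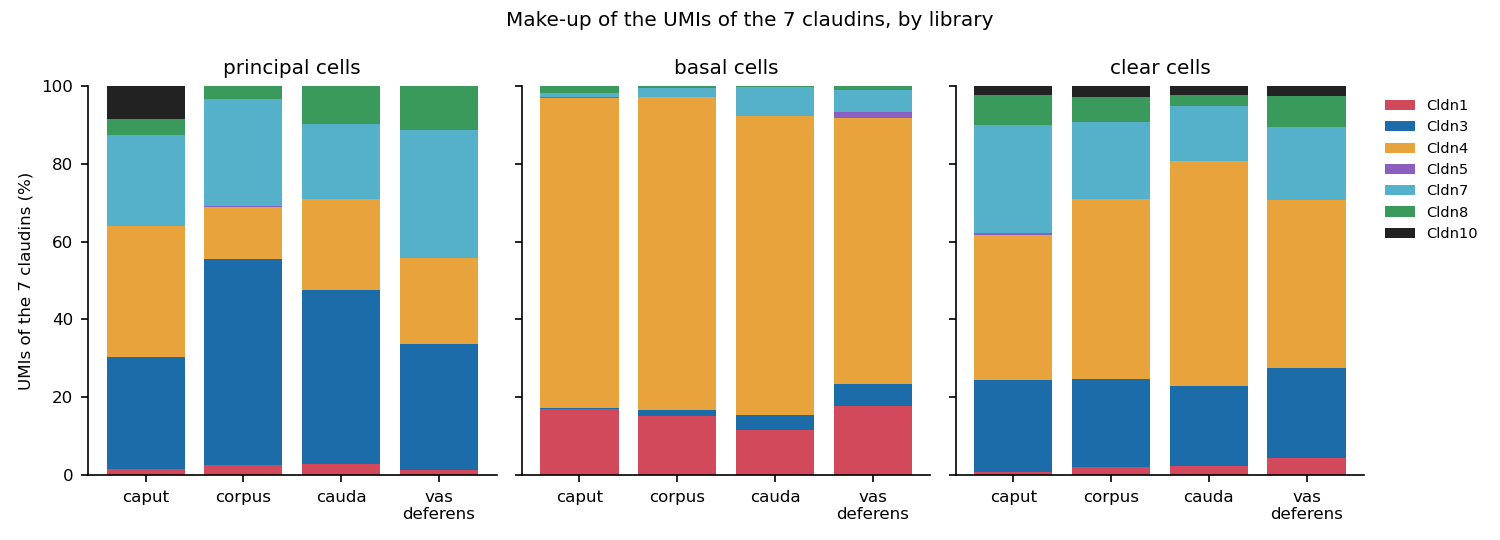
Share of all UMIs of the 7 claudins (percent, axis from 0 to 100) taken by each claudin, stacked, in principal, basal and clear cells of each library. *Cldn4* takes from 68.2% to 80.5% in basal cells and from 37.3% to 57.7% in clear cells. *Cldn10* takes 8.57% in principal cells of the caput and at most 0.108% in those of the other libraries. In clear cells it takes from 2.21% to 2.91%.

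To compare cells of unequal depth, 1000 UMIs were drawn from each cell and shallower cells were left out (2062 principal, 257 basal, 110 clear, 45 endothelial and 37 immune cells). A *Cldn4* UMI was then found in 84.0% of basal cells (Clopper-Pearson 95% interval 81.7 to 86.1), 56.7% of clear cells (50.2 to 63.1) and 28.4% of principal cells (26.3 to 30.4), against 1.27% of immune cells (0.154 to 4.50), which should lack it. The unthinned shares were 90.0%, 66.7%, 30.9% and 2.56%. *Cldn1* was found in 45.7% of basal cells (42.8 to 48.6) and 0.633% of immune cells, with unthinned shares of 76.3% and 3.08%.

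*Cldn3*, *Cldn7* and *Cldn8* were each found in fewer cells. Principal, clear and basal cells had a *Cldn3* UMI in 43.6%, 33.6% and 10.6% of cells and a *Cldn7* UMI in 33.7%, 28.2% and 15.8%, where immune cells had 2.53% and 1.27% (unthinned 40.1%, 45.7% and 17.4% for *Cldn3*, 35.6%, 47.4% and 29.0% for *Cldn7*, and 4.62% and 4.10% in immune cells). *Cldn8* was found in 12.4% of principal cells and 12.6% of clear cells, and in 0 of 158 immune cells, which allows up to 1.90% (unthinned 20.7%, 29.9% and 1.54%). *Cldn5* was found in 21.0% of endothelial cells (15.6 to 27.3, unthinned 36.3%) and *Cldn10* in 6.72% of clear cells (3.89 to 10.7, unthinned 16.7%), both with 0 thinned immune cells. *Tjp1* was found in 9.50% of endothelial and 7.79% of stromal cells (unthinned 28.6% and 18.5%), beside 0.633% of immune cells (unthinned 3.08%). At this depth 9.18% of basal, 21.0% of clear and 25.8% of principal cells carried no UMI of the 7 claudins, against 75.0% of endothelial and 95.6% of immune cells. Claudins outside the 7 were not counted here. Exactly 1 of the 7 was seen in 36.6% of basal, 36.6% of clear and 39.0% of principal cells. The median was 2 of the 7 per basal cell and 1 per clear or principal cell.

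**Figure D3:**
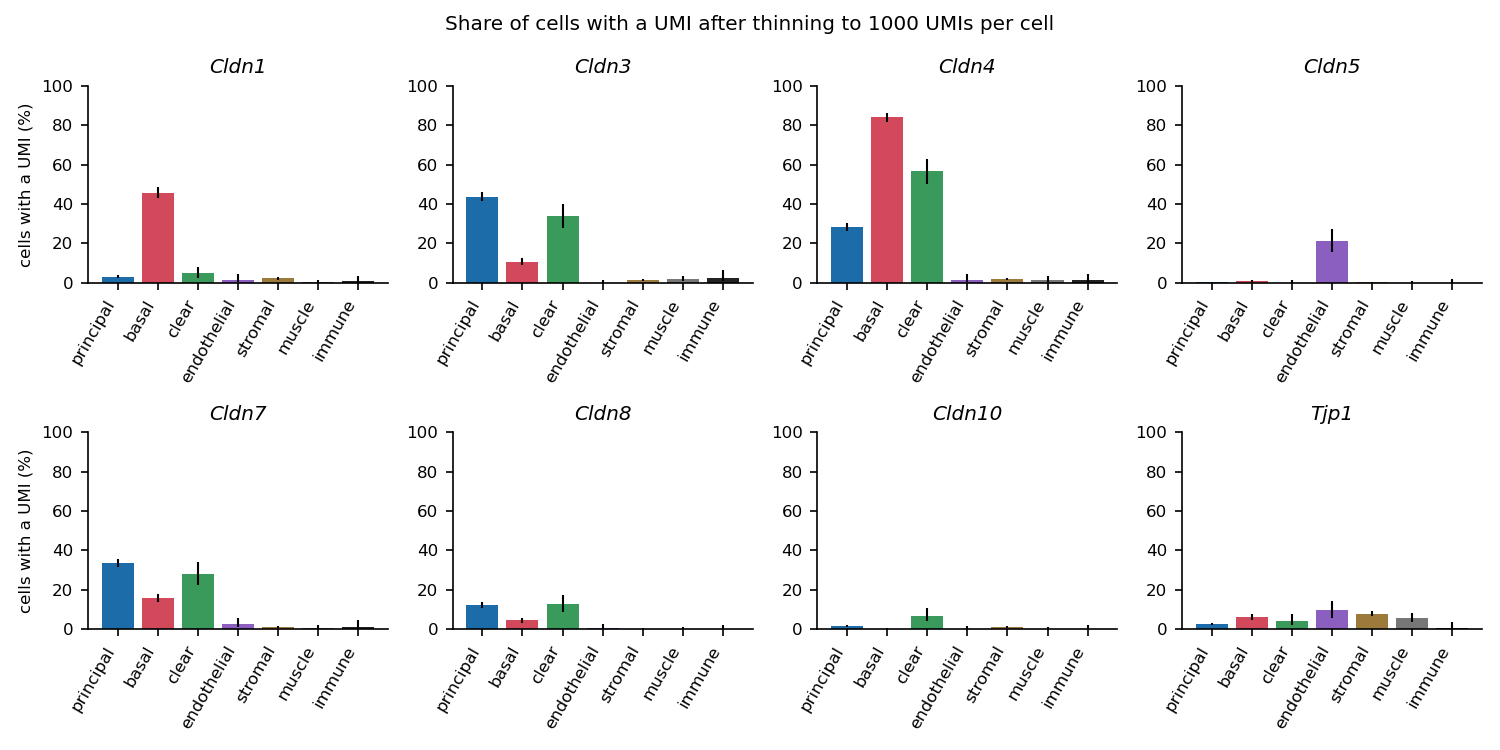
Share of cells (percent) with at least 1 UMI of each member after each cell was thinned to 1000 UMIs, by cell type, with exact binomial 95% intervals. *Cldn4* reaches 84.0% of basal cells and 56.7% of clear cells, and the immune cells show the low share of a type without epithelial claudins, from 0 to 2.53%.

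*Cldn3*, *Cldn7* and *Cldn8* had larger ratios between the basal cells of the 4 libraries than *Cldn1* and *Cldn4* did. By a rule of 4-fold between the highest and lowest library with at least 20 UMIs in the highest, 4 of 7 members with enough UMIs differed in basal cells, beside 13.1% of 7258 genes, and the median ratio was 4.87 for the members against 1.86 for all genes. They were *Cldn3*, *Cldn7*, *Cldn8* and *Cldn5*, the last resting on the vas deferens cells described above, and 3 of them were left without the cells carrying an endothelial marker. *Cldn3* in basal cells was 12.8 UPM in caput (7.56 to 20.2), 74.2 in corpus (63.9 to 85.8), 262 in cauda (231 to 297) and 201 in vas deferens (177 to 226), a ratio of 20.6 (12.8 to 35.3) between cauda and caput. *Cldn7* in basal cells was 44.6 UPM in caput (34.3 to 57.1), 133 in corpus (119 to 148), 507 in cauda (463 to 554) and 198 in vas deferens (175 to 224), a ratio of 11.4 (8.72 to 15.0). Both were lowest in the caput pool and highest in the cauda pool, while *Cldn8* ran the other way.

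*Cldn8* in basal cells was 56.0 UPM in caput (44.3 to 69.8), 21.5 in corpus (16.1 to 28.1), 11.5 in cauda (5.74 to 20.6) and 37.0 in vas deferens (27.5 to 48.8). Caput was 4.87 times as high as cauda (2.58 to 10.1). *Cldn1* and *Cldn4*, measured in the same cells, differed by 1.38 and 2.13 times between their highest and lowest libraries. After thinning, a *Cldn7* UMI was found in 4.51%, 12.3%, 39.4% and 16.3% of basal cells from caput to vas deferens, and a *Cldn3* UMI in 0.410%, 6.53%, 23.5% and 16.3%. The thinned *Cldn3* share of caput basal cells, 1 cell of 244, was no higher than that of immune cells pooled over libraries (2.53%). The order also held in the main basal population alone, where *Cldn7* was 37.0, 114, 482 and 192 UPM and *Cldn3* was 13.1, 56.2, 222 and 189 UPM.

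RNA of principal cells in basal droplets was gauged, after the values had been seen, with 50 genes rich in principal cells. They were the richest of those at least 20 times as high there as in stromal cells. Choosing genes that are low in another cell type may itself lower their levels in basal and clear cells. In basal cells these had a median of 1.32%, 1.94%, 1.31% and 3.93% of their principal level from caput to vas deferens. *Cldn3* in basal cells was 3.19%, 7.18%, 31.4% and 32.8% of its principal level, *Cldn7* was 13.8%, 24.6%, 140% and 31.9%, and *Cldn8* was 99.5%, 33.9%, 6.37% and 17.6%. The 3 members were above that median in each of the 4 libraries, although from 1 to 11 of the 50 genes were at or above the member. What part principal RNA had in these basal values was not tested. In clear cells the same genes had medians of 1.11%, 3.81%, 1.66% and 30.3% of their principal level, so the vas deferens clear cells stood apart. There *Cldn3*, *Cldn7* and *Cldn8* were 93.9%, 75.2% and 91.8% of their principal level, with from 7 to 11 of the 50 genes at or above each, and what part principal RNA had in these values was not tested.

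**Figure D4:**
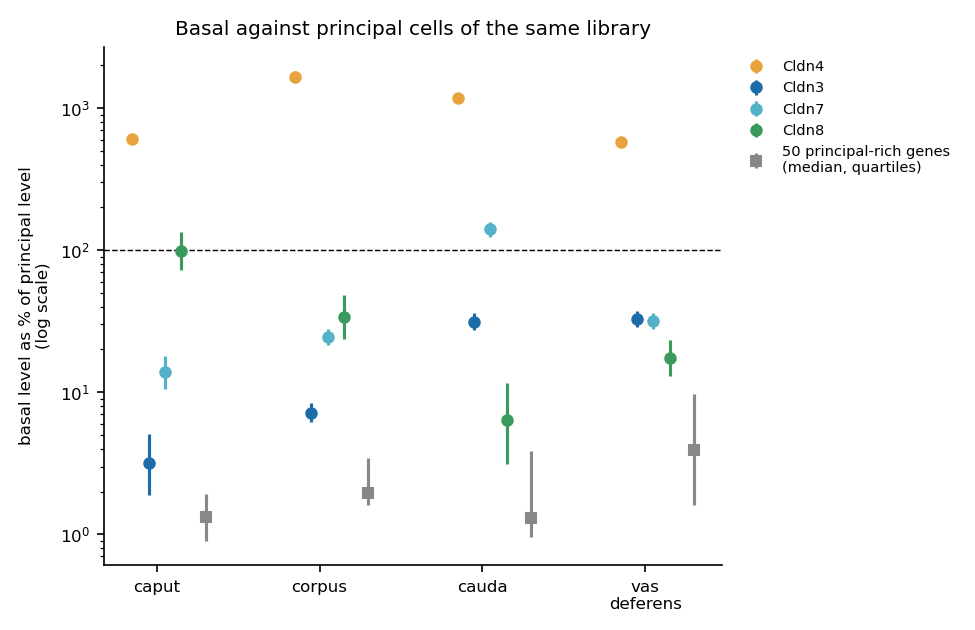
Level in basal cells as a percentage of that in principal cells of the same library (log axis) for *Cldn4*, *Cldn3*, *Cldn7* and *Cldn8*, with exact conditional 95% intervals, beside the median and quartiles of the 50 principal-rich genes (gray squares). *Cldn4* lies above 100% in every library, *Cldn3* below it in every library, and *Cldn7* below it except in cauda (140%).

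Principal cells showed a different picture. By the same rule 1 of 7 members, *Cldn10*, differed between libraries, beside 28.4% of 9122 genes, and the median ratios were 2.58 and 2.51. *Cldn8* came nearest to the threshold otherwise, at 3.75 (3.04 to 4.66) between vas deferens and caput, and the others were *Cldn1* at 2.77, *Cldn3* at 2.58, *Cldn7* at 1.93, *Cldn4* at 1.75 and *Tjp1* at 1.21. In clear cells 0 of 4 members with enough UMIs differed 4-fold, beside 11.9% of 3949 genes, with median ratios of 2.23 and 1.89. *Cldn4* in clear cells was 3.07 times as high in cauda as in caput (2.56 to 3.70). The clear cells of the libraries lay in different populations, mainly clear 2 (39 cells) and clear 3 (28 cells) in caput and clear 3 (94 cells) in cauda, and within clear 3 alone *Cldn4* was 593 UPM in caput, 854 in corpus, 1466 in cauda and 870 in vas deferens. In the clear cells as a whole, *Cldn1* was 9.47 times as high in vas deferens as in caput (2.71 to 50.7) on 16 and 3 UMIs, too few to enter the count.

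The 34 populations showed variation within types. Principal 4, a group of 74 cells, had the highest *Cldn3* and *Cldn7* of all populations, at 2339 UPM (2068 to 2636) and 1348 UPM (1144 to 1577), against 216 and 249 UPM in principal 1. Its sum over the 7 claudins was 4338 UPM, against 1664 UPM in principal 5. *Cldn3* made 53.9% and 46.4% of the claudin UMIs of these 2 populations, and *Cldn7* made 31.1% and 34.6%. What part the other RNA of principal 4, which enters each UPM value, had in its levels was not tested. Among basal cells, the population that the authors set apart for few UMIs had 9192 UPM of *Cldn4* (8872 to 9521) and 1831 of *Cldn1* (1690 to 1981), where main basal cells had 3318 and 654 UPM. In the paper, basal cells with few UMIs were also low in ribosomal protein genes, and it was left unclear whether they are technical artifacts. What part this had in the UPM values was not tested. The fourth basal subcluster, of 15 cells, had only 3 *Cldn4* and 2 *Cldn1* UMIs. Among clear cells, clear 3 had 1145 UPM of *Cldn4* and 61.5 of *Cldn10*, and clear 2 had 637 and 30.3 UPM. Clear 1, which the authors named for *Krt14*, had 3184 UPM of *Cldn4* (2677 to 3759), 1191 of *Cldn3*, 779 of *Cldn7* and 183 of *Cldn1*. It held 54 cells with a median of 698.5 UMIs, summed levels of the 4 basal markers of 870 UPM (none at 0) against 36.4 and 79.9 UPM in clear 2 and clear 3, and summed clear markers of 1283 UPM against 8992 and 7842 UPM. The part of these in its claudin levels was not tested.

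**Figure D5:**
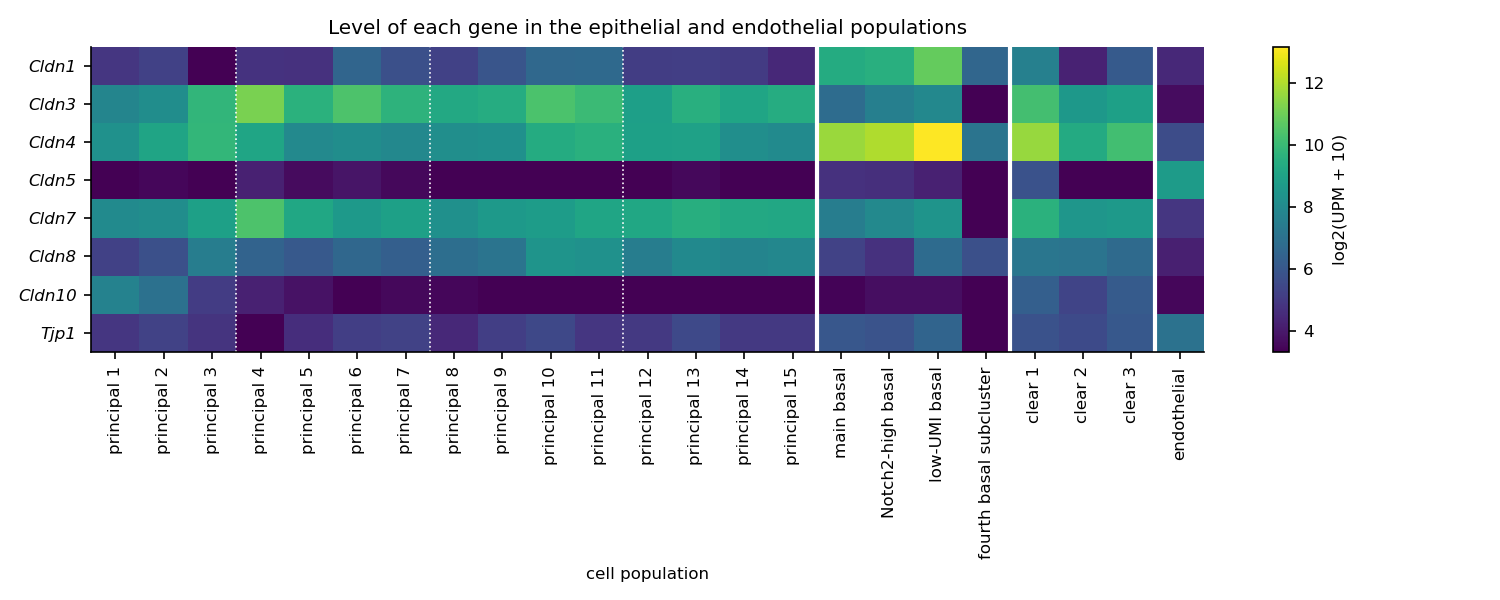
Level of each member in each epithelial population and in endothelial cells, as color on the scale log2(UPM + 10), with dotted lines between principal 1 to 3, 4 to 7, 8 to 11 and 12 to 15 and solid lines between cell types. *Cldn3* and *Cldn7* share their pattern and peak in principal 4 (2339 and 1348 UPM), *Cldn10* is seen in principal 1 to 3 and the clear populations, and *Cldn5* stands out in endothelial cells. Principal 4 also had the highest summed claudin level of the principal populations (4338 UPM).

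Across the 34 populations, each member was compared with 12370 genes by Pearson correlation of log2(UPM + 10). These values describe likeness only, since the populations share libraries and differ in depth. *Cldn3* and *Cldn7* were each other's closest gene (r = 0.948), followed for *Cldn3* by *Prss8* (a membrane-bound serine protease, r = 0.945) and *Elf3* (an epithelial transcription factor, r = 0.943), and for *Cldn7* by *Prss8* and *Pou3f3* (r = 0.935 for each). *Cldn8* was closest to *Rnf128* (r = 0.914), *Prss8* (0.908) and *Frk* (0.899). The genes most like *Cldn4* were *Cdh1*, which encodes E-cadherin (r = 0.928), the desmosomal *Dsp* (0.922) and *Fam83h* (0.922), and those most like *Cldn1* were *Krt14* (0.851), *Lamb3* (0.825) and *Cdcp1* (0.823). *Cldn5* was closest to *Eltd1* (r = 0.934), *Grrp1* (0.913) and *Rasip1* (0.900), *Cldn10* to *Armcx1* (0.852), *Ggt7* (0.828) and *Exph5* (0.774), and *Tjp1* to *Ptprk* (0.879), *Cnn3* (0.871) and *Wwtr1* (0.847). Among the members themselves, *Cldn4* had similar values with *Cldn1* (0.704), *Cldn3* (0.719) and *Cldn7* (0.748), while *Cldn1* and *Cldn3* were at 0.220 and *Cldn3* and *Tjp1* at -0.12.

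The junction genes around the members were listed by role. Of 74 genes listed, 67 were in the table, 59 had at least 20 UMIs in their highest cell type, and 46 of these (78.0%) were highest in an epithelial type, beside 54.1% of 11352 genes. A leading type at least 4-fold above the next was found for 12 of 59, beside 14.8% of all genes. By list, the highest type was epithelial for 6 of 8 other claudins, 6 of 9 tight junction membrane genes, 16 of 19 scaffold and polarity genes, 10 of 12 adherens junction genes and 6 of 9 gap junction genes. Clear cells were the highest type for 10 of the 19 scaffold and polarity genes, and were also the highest type for the largest number of all genes (2954 of 11352).

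Among the other claudins, the pore-forming *Cldn2* was a caput gene of principal cells like *Cldn10*, at 349 UPM in caput (322 to 378) and at most 4.93 UPM in the other libraries. It was 321 UPM in principal 1, 385 in principal 2 and 601 in principal 3, so that its highest population was the one in which *Cldn10* was lowest among these 3. *Cldn23* was instead lowest in the caput in principal cells, with 0.580 UPM in caput, 159 in corpus, 95.4 in cauda and 19.6 in vas deferens. *Cldn9* was found mainly in clear cells, at 55.4 UPM (44.0 to 68.9) and from 30.0 to 84.6 UPM by library, against 0.314 UPM in principal cells. The row named *Cldn25* was highest in basal cells (237 UPM) and nearly as high in stromal cells (235 UPM), but this symbol has also been used for *Cldnd1*, and which of these genes was counted is not settled here.

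*Epcam*, whose protein binds claudin-7, was 1872 UPM in basal, 1006 in clear and 854 in principal cells. Pooled over libraries, it was thus highest in the cell type with the least *Cldn7* of these 3, although in cauda basal cells had the most *Cldn7*. Of the tight junction membrane genes, the coxsackievirus and adenovirus receptor *Cxadr* was 501 UPM in clear, 150 in basal and 56.3 in principal cells, *F11r* (JAM-A) was 157, 108 and 82.7 UPM in basal, clear and principal cells, and *Esam* and *Jam2* led in endothelial cells with 376 and 205 UPM. Of the scaffolds, the cingulin relative *Cgnl1* was 248 UPM in clear cells. *Ybx3* was highest in basal cells with 231 UPM, and the polarity gene *Crb3* was 155 UPM in clear and 88.9 UPM in principal cells. Of the adherens junction genes, *Cdh1* was 378 UPM in basal and 137 in principal cells, beta-catenin (*Ctnnb1*) was 400 UPM in clear and 157 in principal cells, and the vessel cadherin *Cdh5* was 652 UPM in endothelial cells. Of the gap junction genes, *Gja1* was 582 UPM in endothelial, 272 in basal and 55.4 in principal cells, and *Gjb1* was 73.9 UPM in principal and 30.1 in clear cells.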

How the data were processed

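Single cells of 4 regions were measured with 10x 3′ libraries. Per the methods and the submitters' processing notes, the authors split reads with bcl2fastq, aligned them to mm10 (GRCm38) with HISAT2 2.0.4, counted UMIs per gene with ESAT, and took out ambient RNA with a modified SoupX, which removed 3.54% of UMIs. The deposited values are whole UMI counts of 16892 genes in 8880 cells, beside a table with each cell's library, UMI count before ambient removal and population. Genes that share a 3′ end could be split by that counting, and reads mapping to several places were left out by the authors.

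Cells were grouped by library and by the authors' populations, without re-clustering. UMIs of a gene were summed and divided by all UMIs of the group, and levels were compared by ratios with exact conditional 95% intervals. Since there was 1 library per region, no test was run. A gene at 0 in the lower group was set to 3 UMIs there. Counts of members past 4-fold with at least 20 UMIs in the higher group stand beside the same count over all genes. Libraries with fewer than 10 cells of a type were left out of the regional counts. The members, marker lists and junction lists were chosen with earlier results of these data known. The text names all 8 members, the 2 highest genes of each junction list in each of principal, basal, clear and endothelial cells (in part), and the 3 genes most alike to each member. Some of the genes that this rule names are not reported here. Thinning and the doublet caller used a fixed seed. The ratio and interval code was tested on simulated counts. In all, 64 alternatives were planned and 10 were added after the data had been seen. Sums and tables were made with pandas 2.3.3 and numpy 2.4.6 in Python 3.11.15, intervals with scipy 1.17.1, the doublet calls with scikit-learn 1.9.0 and plots with matplotlib 3.10.9.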

Additional observations from a re-analysis of the deposited data

Results flagged for a closer look

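Some ratios between cell types lay clearly above 1 in 1 library and clearly below 1 in another. With 1 library per region the difference between libraries was not tested. For *Cldn7*, the level in basal cells over that in principal cells was 0.138 in caput (exact interval 0.105 to 0.180), 0.246 in corpus (0.216 to 0.281), 1.40 in cauda (1.24 to 1.58) and 0.319 in vas deferens (0.281 to 0.362). The same gene in basal over clear cells gave 0.118 in caput, 0.364 in corpus, 1.31 in cauda and 0.424 in vas deferens. The cauda pool thus stood apart for *Cldn7* against both principal and clear cells.

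For *Cldn8*, the level in clear over principal cells was 1.87 in caput, 1.82 in corpus and 0.402 in cauda. For *Cldn10*, clear over principal cells was 0.254 in caput (0.108 to 0.510) and 25.3 in corpus (7.73 to 131), where principal cells had 3 UMIs. It was at least 37.1 in cauda and at least 104 in vas deferens, where principal cells had 0 UMIs and the bound uses 3 UMIs per library.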

How the results depend on the processing

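Of 74 recomputed counts, 63 stayed within 1.5 times the reported one, and of 305 recomputed single values 238 moved by less than their counting interval, 66 moved further and 1 that had passed the 4-fold rule reversed. *Tjp1* in principal cells, vas deferens over corpus, whose reported interval held 1, ranged from 0.770 to 1.36. The reversed value was *Cldn5* in basal cells, vas deferens over corpus, at 0.624 without basal and clear cells carrying an endothelial marker UMI, since 80 of its 81 vas deferens UMIs were in such cells. The same choice put *Cldn5* in endothelial over basal cells at 625. With a 2-fold rule, 4 members had a leading cell type, 4 differed between libraries in principal cells and 2 in clear cells. With cells of at least 1000 UMIs 2 members differed in principal cells, *Cldn8* reaching 4.00. In clear cells 1 member differed with a mean over cells of each cell's UMI fractions and 1 with a minimum of 10 UMIs. Without the caput library, without the cauda library, or with the 100 genes of most UMIs left out of the denominator, 3 members had a leading cell type. The number of members found in at least 50% of the cells of a type was 1 when thinned to 1000 UMIs, 4 when thinned to 2000 and 2 without thinning. Of the 24 genes named as most alike, 8 were shared with Spearman's correlation, 14 with a pseudocount of 1 and 8 with cell types by libraries in place of populations. No paired analysis was possible because each region had 1 library and the result came from no test.

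Depth limits the low values most. Principal cells had the fewest UMIs per cell, clear and endothelial cells the fewest cells in some libraries, and levels resting on under 20 UMIs, such as *Cldn1* in clear cells of caput or *Cldn5* in basal cells outside the vas deferens, are uncertain within their intervals. Spread between animals could not be measured.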

Other observations

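Some claudins outside the 8 genes differed between cell types or regions and are named here after their values had been seen. *Cldn11*, known from myelin and from the Sertoli cell barrier of the testis, was 191 UPM in stromal cells, with 549 UPM in caput (500 to 601), 348 in corpus (323 to 376), 81.0 in cauda (65.5 to 99.0) and 0.399 in vas deferens (1 UMI in 1015 cells). The stromal populations differed between libraries. *Cldn11* was 285 UPM in myofibroblasts and 359 in low-UMI stromal cells, whereas stem-like and secretory stromal cells (94.2% of each from the vas deferens) had 1 and 0 UMIs. *Cldn6* was 31.5 UPM in clear cells, with 71.4 UPM in caput, 49.3 in corpus, 5.18 in cauda and 6.68 in vas deferens, while *Cldn9* in the same cells was highest in cauda (84.6 UPM). Clear cells of the libraries lay in different populations, and *Cldn6* was 69.8 UPM in clear 2, found in caput and corpus, and 21.1 UPM in clear 3, found mostly in cauda and corpus. *Cldn14* was 60.5 UPM in principal cells, with 113 UPM in caput, 33.8 in corpus, 99.4 in cauda and 35.0 in vas deferens.

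Caput endothelial cells had 18 *Cldn4* UMIs (127 UPM, 75.3 to 201) and 7 *Cldn1* UMIs. The summed basal markers of endothelial cells were 339 UPM in caput and from 189 to 409 UPM in the other libraries. Their summed epithelial markers (*Epcam*, *Krt8*, *Krt18*, *Krt19* and *Cdh1*) were 600 UPM in caput, with 1 of the 5 at 0, against 24.3 in corpus, 26.8 in cauda and 125 in vas deferens, and what part these had in the *Cldn4* value was not tested. *Itga6*, which is on the basal list, was 268 UPM in endothelial cells over all libraries.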
